A study of Mus musculus with 1111 samples.

Results

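Apoe-positive microglia are the cells in which transcripts of Apoe (ENSMUSG00000002985), the gene of apolipoprotein E, were counted, and they are set here against microglia in which none were. The members were chosen by their Apoe level. Cells entered from 50000 reads in genes and 500 genes upward. A cell was called positive at 10 CPM of Apoe or more, and negative with 0 Apoe reads, where CPM are reads of a gene scaled to the same total of reads in genes for every cell. Of 987 cells that passed, 16.01% were positive, 826 were negative and 3 lay between. All cells were microglia sorted from the brains of 3-month-old mice, 20 hours after an injection of plasma proteins carrying the fluorescent dye NHS-Atto647N, and they were profiled by Smart-seq2, which makes 1 full-length library per cell. The cells had been gated by their plasma signal into plasma none, plasma low and plasma high, and each well also has a TH number from 1 to 3 whose meaning is not stated. The positive cells number 28, 52 and 78 over plasma none, low and high. Every cell in both classes had received the same injection, and the labels give no strain, sex, genotype or animal.

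Apolipoprotein E carries cholesterol and other lipids on lipoprotein particles. In the healthy brain it is made mainly by astrocytes, and microglia make little of it until they respond to damage, myelin debris or amyloid. Its rise is then part of a programme known as disease-associated microglia, which includes lipid, phagocytic and lysosomal genes and depends in part on the receptor Trem2, while homeostatic genes such as P2ry12 and Tmem119 are lowered.

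No label ties a cell to an animal, so each class counts as 1 sample and no test or p-value is given. Positive and negative cells were compared within each TH number, with the negatives weighted to the plasma makeup of the positives and Apoe itself left out of all totals. Errors are the SD over the 3 TH numbers (n = 3), and they do not measure how animals vary. A log2 ratio is that of CPM plus a pseudocount of 1 CPM, positive over negative. The size rule asked for a mean log2 ratio of 1 or more in either direction, 1 sign throughout the 3 TH numbers, a mean level from 20 CPM upward and reads in 10% or more of the cells in either class, and "rose" and "fell" are used of such genes alone.

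Both classes carried microglial transcripts throughout. The 10 microglia markers summed to 54571 ± 5592 CPM in the positive cells and 56978 ± 2576 CPM in the negative cells, and every cell of both classes had a read of at least 5 of them. None of the positive cells had 3 or more markers of another cell type at 10 CPM (95% exact upper limit 2.31%), against 3 of 826 negative cells. Of 10 markers of border-associated macrophages, which express Apoe strongly, 7 were at 0 in both classes, among them Pf4, Cd163, Lyve1 and Ms4a7. Mrc1, of the same list, had 16.6 CPM in positive cells, all from 1 cell of TH 3. It had 2.45 CPM in negative cells, from 8 cells. That list summed to 104.99 ± 46.7 CPM in positive and 152.7 ± 30.8 CPM in negative cells, most of it from Stab1, a scavenger receptor that microglia also express. Astrocyte markers summed to 333.02 ± 98.3 against 228.4 ± 49.1 CPM, mostly from Slc1a3, a glutamate transporter; Gja1 and Aldh1l1 were at 0 in both classes, Gfap was at 0 in the positive cells, and a read of Aqp4 was found in 1 of them. Aldoc (8.87 against 1.56 CPM) and Slc1a2 (4.81 against 0.530 CPM) were higher in positive cells, each read in 2 of them. Clu was lower (0 against 0.593 CPM). The part of the Slc1a3, Aldoc and Slc1a2 reads in the results was not tested. The median depth was 272057 reads per positive cell and 262027 per negative cell (difference 10030 ± 25649). At an equal 50000 reads a cell the median number of genes differed by 16.5 ± 88.5, with both signs among the TH numbers. The mitochondrial share of reads was 0.962% in positive and 0.811% in negative cells, higher by 0.313, 0.0615 and 0.0798 percentage points in TH 1, 2 and 3, and its part in the results was not tested.

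Apoe was counted in a minority of cells, and over a wide range. The median positive cell had 715 CPM of Apoe, with quartiles of 340.6 and 1908 CPM and a highest cell of 93391 CPM. The gap at the cut was wide: the lowest positive cells had 25.03, 40.03 and 68.8 CPM, and the 3 cells between the classes had 3.64, 5.02 and 8.22 CPM from 1 or 2 reads. No positive cell rested on 5 or fewer Apoe reads. Only 4 positive cells lay under 100 CPM, 91 had 100 to 1000 CPM and 63 had 1000 CPM or more. Those 63 cells held 89.3% of all Apoe reads, and 1 cell held 14.3%.

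The positive cells were 16.01% of all that passed (95% exact interval 13.8 to 18.4%, counting error only, as for all such intervals). They made up 8.09% of the plasma none cells, 14.8% of the plasma low cells and 26.9% of the plasma high cells. In plasma none the share was 6.90, 8.85 and 8.55% in TH 1, 2 and 3. In plasma low it was 16.9, 13.7 and 13.8%, and in plasma high 23.8, 28.1 and 29.03%. The plasma groups thus kept the same order in each TH number, with no overlap between them. Among positive cells the median Apoe level over plasma none, low and high was 701, 387 and 1128 CPM, so it did not follow the same order. It was 502, 678 and 1062 CPM in TH 1, 2 and 3. Of the 8 cells with 10000 CPM or more, 7 were plasma high and 6 were of TH 3. Depth moved with the share: 11.6% of cells with 50000 to 100000 reads were positive, 15.4% at 100000 to 200000, 15.9% at 200000 to 400000, and 20.0% from 400000 reads.

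**Figure D1:**
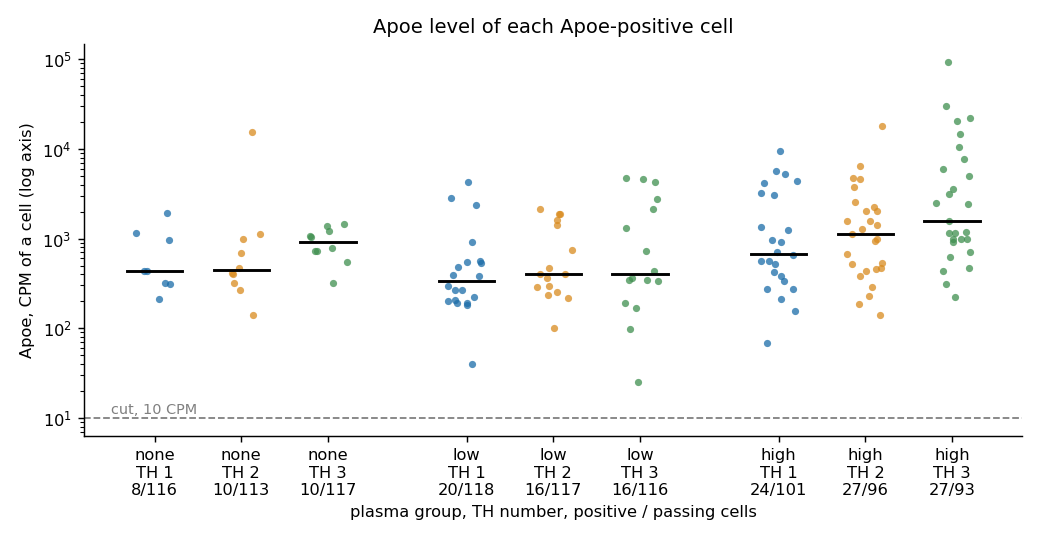
Apoe CPM of each positive cell on a log axis, by plasma group and TH number, with the number of positive and passing cells under each column; bars are medians and the dashed line is the cut of 10 CPM. The cells of 10000 CPM or more sit mostly in plasma high, 6 of 8 of them in TH 3.

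Few genes rose or fell with Apoe. Among 5644 genes tested, 85 rose (1.51%) and 3.14% fell in Apoe-positive cells. All 3 plasma groups went the same way for 44 of the genes that rose and 130 of those that fell. Rises were 32.4% of the genes that met the rule, and 43.7% with DESeq2 size factors in place of TMM scaling, where 1.97% of the genes tested rose and 2.53% fell. Most calls were in genes of low level. Of the 788 genes with a mean of 200 CPM or more, 2 rose, Lyz2 and Cd63, and 0 fell. The median log2 ratio of all genes tested was -0.05, its median size 0.31 and the median SD over TH numbers 0.60, and 13.4% of the genes tested were higher and 13.7% lower in 3 of 3 TH numbers. The single highest cell held a median of 25.04% of a risen gene's reads in the positive cells. Among genes that fell, the highest negative cell held a median of 7.85%. When each gene's highest cell was removed from every class and TH number, 39 genes (0.771% of 5056) met the rule as higher and 6.65% as lower. They held 36.5% of the genes that rose with all cells and 65.5% of those that fell. With TH 1, 2 or 3 left out, so that only 2 signs had to match, 3.30, 3.80 or 4.06% of the genes tested met the rule as higher and 6.26, 6.18 or 6.12% as lower.

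Of the disease-associated genes, 5 of the 30 that reached a mean of 5 CPM met the size rule as higher (Axl, Lpl, Ank, Lyz2 and Cd63) and 0 met it as lower. Of these 30 genes, 29 had a mean ratio above 0, and 18 were higher in 3 of 3 TH numbers, 0 lower. Their median log2 ratio was 0.49, with TH medians of 0.62, 0.44 and 0.46, where all 10372 genes that reached 5 CPM had a median of -0.15, with 10.7% higher and 15.8% lower in 3 of 3 TH numbers. The list covers genes known from the disease-associated state, so several of its genes are known companions of Apoe.

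Axl, a receptor kinase that helps phagocytes take up dying cells, had the largest rise of the 85 genes. It stood at 79.3, 47.4 and 126.4 CPM in the positive cells of TH 1, 2 and 3, and at 6.71, 6.51 and 8.80 CPM in the negative cells. Every positive value lay above every negative one, and the log2 ratio was 3.26 ± 0.52. Averaged over the TH numbers of plasma none, low or high alone, the ratio was 1.05, 1.70 and 3.49. The classes differed in how many cells had the transcript: a read was found in 18.4% of positive cells and 1.69% of negative cells. At 50000 reads a cell the share was 15.4, 16.98 and 18.9% of positive cells over the TH numbers, against 2.68, 1.96 and 1.38% of negative cells, weighted as above. Read the other way, 29 of the 43 cells with an Axl read were Apoe-positive (67.4%, interval 51.5 to 80.9%), while 16.01% of all cells that passed were. The Axl-containing positive cells had a median of 411 CPM of Axl. Axl lies on chromosome 7 (25757273 to 25788705, mm10), as does Apoe (19696109 to 19699188), and overlaps no other gene.

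Lyz2, the lysozyme gene of myeloid cells, rose with the smallest spread over TH numbers of the 85 genes. Its level was 806, 774 and 860 CPM in positive cells against 273.97, 294.2 and 305.6 CPM in negative cells, with a log2 ratio of 1.48 ± 0.08. All 3 positive values lay far above the negative ones, and the highest cell held 7.42% of the reads. A Lyz2 read was found in 75.3% of positive and 38.98% of negative cells. Lyz2 was higher in the positive cells of each plasma group, with log2 ratios of 1.28, 1.66 and 1.46 in plasma none, low and high. Within plasma none TH 1 went the other way, with 141.2 CPM in its 8 positive cells against 320.8 CPM in the negative cells, and the average over the TH numbers of plasma none alone was 0.45, short of the rule. Lyz1, its near-identical neighbour, was counted at 0.239 CPM in positive and 0.0425 CPM in negative cells, and how reads shared by both were assigned is not stated.

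Cd63, a tetraspanin of late endosomes and exosomes, rose with a log2 ratio of 1.11 ± 0.10. It had 748, 614 and 540 CPM in positive cells and 321.3, 297.2 and 258.8 CPM in negative cells, again without overlap. By plasma group the log2 ratio was -0.08, 0.89 and 1.50 over plasma none, low and high. A read was found in 78.5% of positive and 60.2% of negative cells. With every cell given equal weight in place of summed reads, the ratio was 0.84 and no longer met the rule.

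Lpl and Ank rose through few cells. Lpl, the lipase that releases fatty acids from lipoproteins, had 584, 220 and 177.7 CPM in positive cells against 30.6, 32.9 and 30.996 CPM in negative cells (log2 ratio 3.13 ± 0.94). A single cell of plasma low and TH 1, itself at 180 CPM of Apoe, held 47.5% of the Lpl reads of the positive cells. With the highest cells left out the ratio was 2.38. Shares of cells differed too: at 50000 reads a cell 23.1, 18.9 and 16.98% of positive cells had an Lpl read, against 5.78, 8.15 and 8.32% of negative cells. By plasma group the log2 ratio was -0.02, 4.61 and 2.76 in plasma none, low and high. Ank, which exports pyrophosphate from cells, had 125.2, 148.6 and 60.04 CPM in positive cells against 23.2, 26.5 and 19.4 CPM in negative cells (2.14 ± 0.48). Its ratio over plasma none, low and high was -1.29, 0.65 and 3.12. Ank overlaps 3 other annotated genes, and whether the counting used strand is not stated.

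Positive cells often carried several of these 5 transcripts, which were picked for being higher in that class, so the class shares that follow only describe them. Of the positive cells, 29.1% had a read of at least 3 of the 5 genes, against 4.12% of the negative cells, and 5.06% had none, against 190 of the 826. Within the positive class, 13 of the 29 cells with an Axl read also had an Lpl read (44.8%), against 16.3% of those without one. For Ank the corresponding shares were 24.1 and 12.4%. Lyz2 was found in 82.8% of the Axl-containing positive cells and 73.6% of the others. Depth was not equalised for these counts, and no test was made of them.

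**Figure D2:**
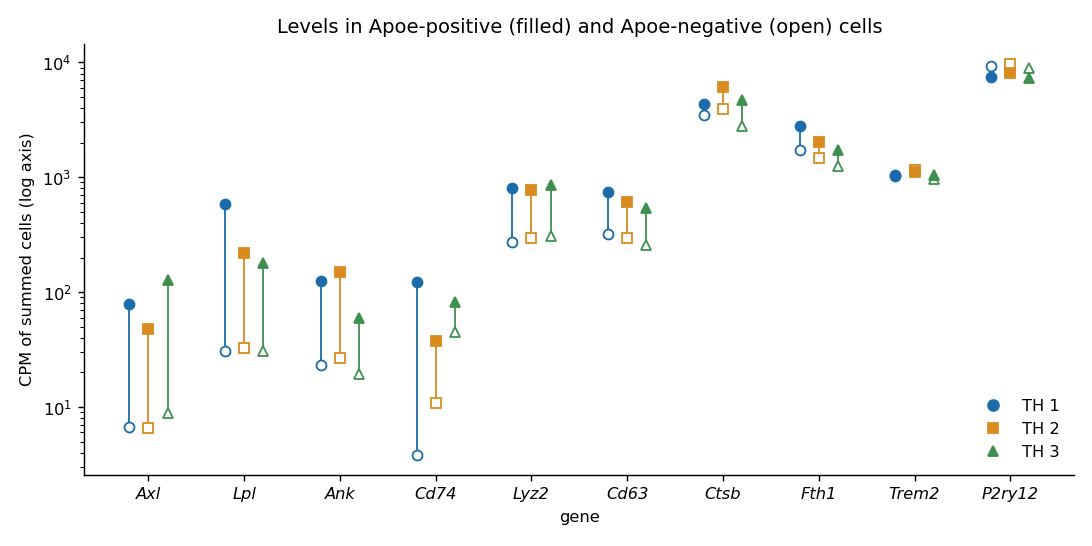
Level of 10 genes in CPM on a log axis in each TH number, filled for Apoe-positive and open for Apoe-negative cells, with a line joining both classes of a TH number. Axl, Lpl, Ank, Cd74, Lyz2 and Cd63 were higher in positive cells in all 3, Trem2 stayed close to equal and P2ry12 was slightly lower.

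The other disease-associated genes differed by less than the rule requires or unevenly. Of the 4 cathepsin genes in this list, which encode lysosomal proteases, 3 were slightly higher in 3 of 3 TH numbers: the log2 ratio was 0.57 ± 0.22 for Ctsb, 0.30 ± 0.08 for Ctsd and 0.34 ± 0.10 for Ctsz. The fourth, Ctsl, had 0.19 ± 0.25 with both signs. The iron-storage gene Fth1 (0.54 ± 0.15), the protease inhibitor Timp2 (0.57 ± 0.16) and the tetraspanin Cd9 (0.31 ± 0.11) were higher by similar sizes. Fth1 was counted at 2813, 2014 and 1737 CPM in positive cells and 1713, 1485 and 1247 CPM in negative cells. Trem2, the receptor on which the programme partly depends, stood at 1059 ± 37.3 CPM in positive and 1054 ± 88.7 CPM in negative cells (0.01 ± 0.09). Its signalling partner Tyrobp had a ratio of 0.44 ± 0.32. Lilrb4a, an inhibitory receptor, had 46.9 ± 3.82 against 3.53 ± 3.48 CPM, with a log2 ratio of 3.77 ± 1.42, but with a read in 8.23% of positive cells it was under the share the rule needs. Lgals3, the gene of galectin-3, had 19.5 against 0.848 CPM from 5 positive and 3 negative cells. No read of Spp1 or Gpnmb was counted in either class, and Itgax was found in 4.43% of positive and 1.09% of negative cells.

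Homeostatic genes were little different. Of 30 genes measured, 0 met the size rule, and 4 were higher and 8 lower in 3 of 3 TH numbers. Their median log2 ratio was -0.09 (TH medians -0.17, 0.09 and -0.13), against -0.15 for all genes that reached 5 CPM. Of all those genes, 10.7% were higher and 15.8% lower in 3 of 3 TH numbers. P2ry12, the purinergic receptor that guides microglial processes, had 7523, 8158 and 7381 CPM in positive cells against 9311, 9765 and 8941 CPM in negative cells. The values did not overlap, although the log2 ratio was small at -0.28 ± 0.02, and it was -0.10, -0.22 and -0.31 in plasma none, low and high. P2ry13 had a ratio of -0.30 ± 0.06, the transcription factor Mef2c -0.24 ± 0.10, and the small GTPase gene Rhob -0.50 ± 0.18, each lower in 3 of 3 TH numbers. Tmem119 (-0.23 ± 0.32) and Cx3cr1 (-0.07 ± 0.11) took both signs. Cst3, of the same list, was higher in 3 of 3 (0.17 ± 0.08).

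**Figure D3:**
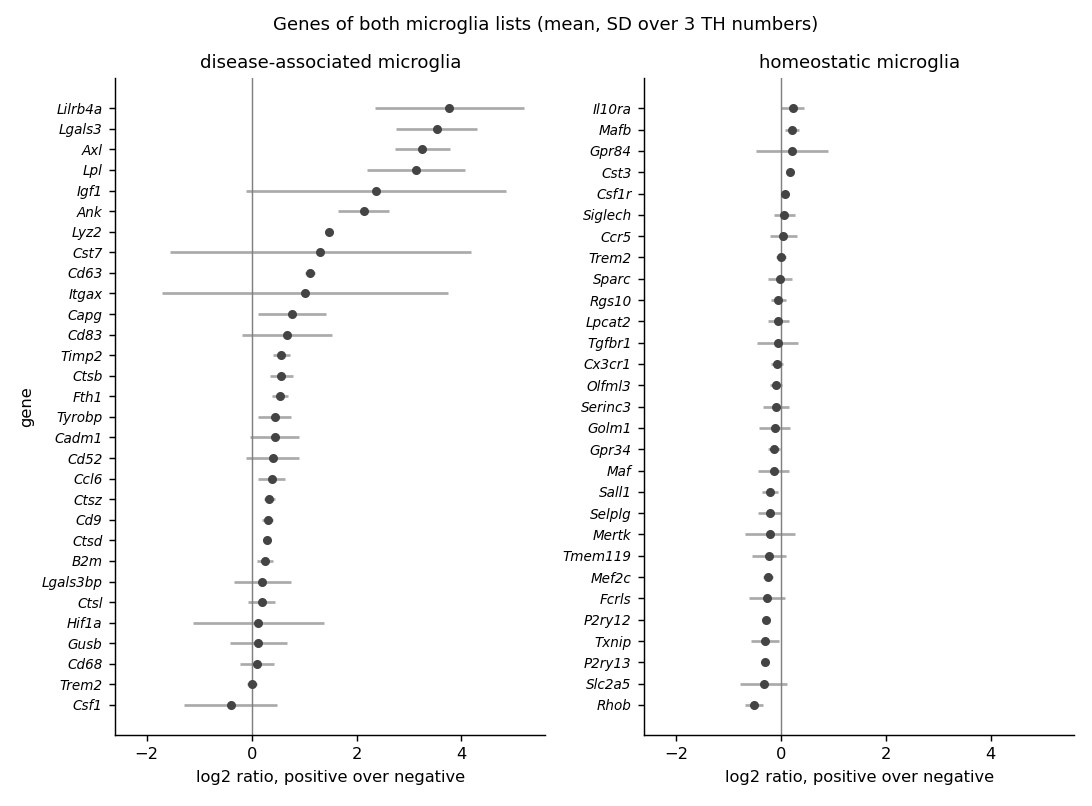
Mean log2 ratio of Apoe-positive over Apoe-negative cells for 30 disease-associated (left) and 29 homeostatic (right) genes; bars are the SD over 3 TH numbers. In the first list 29 of 30 genes lie above 0, in the second 8 of 29.

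The lipoprotein and sterol genes, the pathway Apoe belongs to, leaned higher, and of them only Lpl met the rule. Of 27 measured, 1 rose (Lpl) and 0 fell, and 11 were higher and 2 lower in 3 of 3 TH numbers. Of all genes that reached 5 CPM, 10.7% were higher and 15.8% lower. The median log2 ratio of the list was 0.26 (TH medians 0.19, 0.22 and 0.19), but -0.84 averaged over the TH numbers of plasma none alone. Abca1 and Abcg1, the transporters that load cholesterol onto apolipoprotein E, had ratios of 0.57 ± 0.64 and 0.51 ± 0.36. Abcg1 had 787, 1788 and 1448 CPM in positive cells against 731, 1017 and 947 CPM in negative cells, and 1 cell held 21.4% of its positive reads. Of the genes that handle endocytosed cholesterol, Npc2, which binds it inside lysosomes, had a ratio of 0.31 ± 0.15. Its membrane partner Npc1 had -0.55 ± 0.65, and the acid lipase Lipa 0.50 ± 0.54. The receptor gene Lrp1, which takes up Apoe-bearing particles, had 0.17 ± 0.12. Of the neighbours of Apoe on chromosome 7, Tomm40 had 33.4 ± 2.06 against 33.6 ± 8.25 CPM, and Apoc1 and Apoc4 were at 0 in both classes.

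Lysosomal genes leaned higher. Of 33 measured, 1 rose (Cd63, which the disease-associated list also holds), 0 fell, and 16 were higher and 1 lower in 3 of 3 TH numbers. Of all genes that reached 5 CPM, 10.7% were higher and 15.8% lower. The median log2 ratio of the lysosomal genes was 0.26 (0.19, 0.24 and 0.30 by TH number). The membrane proteins Lamp1 and Lamp2 had ratios of 0.31 ± 0.14 and 0.38 ± 0.06, and progranulin (Grn) 0.22 ± 0.05. Lgmn, a lysosomal protease, had -0.01 ± 0.15. Ribosomal protein genes leaned the same way: 75 of 79 had a mean above 0 and 38 were higher in 3 of 3 TH numbers, 1 lower, while 0 met the size rule and the median was 0.24. Averaged over the TH numbers of plasma none alone, both medians were below 0, at -0.32 for the lysosomal and -0.15 for the ribosomal genes. All 8 measured genes of the mitochondrial genome had a mean above 0, with a median of 0.26 and TH medians of 0.65, 0.18 and 0.06.

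**Figure D4:**
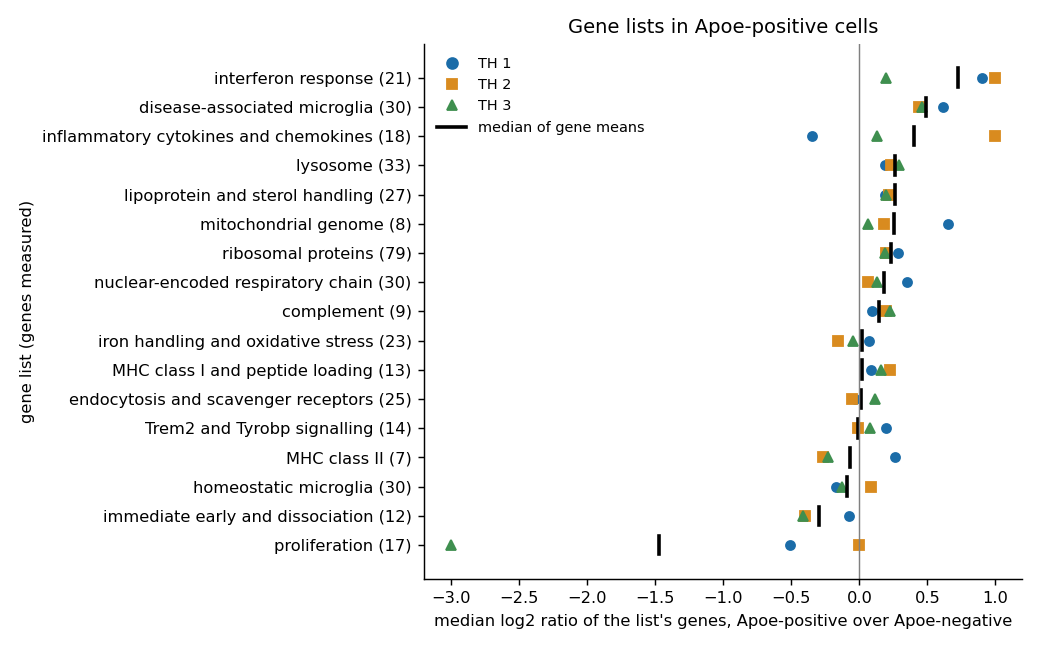
Median log2 ratio of 17 gene lists in each TH number (symbols) and of the genes' means over TH numbers (bars), with the number of genes measured in brackets. The disease-associated, lysosome, ribosomal, mitochondrial, respiratory chain, complement, MHC class I, interferon and lipoprotein medians are above 0 in all 3 TH numbers.

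Immune lists were uneven. Beside the counts below, 10.7% of all genes that reached 5 CPM were higher and 15.8% lower in 3 of 3 TH numbers. Of the interferon genes 0 of 21 met the rule, and 8 were higher and 0 lower in 3 of 3 TH numbers. Their median was 0.73, but 0.25 with the highest cell of each gene left out and -0.53 in plasma low alone. Trim30a was the steadiest of them (0.68 ± 0.04), and Ifit3 had 1.57 ± 2.28 with 63.8% of its positive reads in 1 cell. Cd74, the invariant chain of MHC class II, rose (2.42 ± 2.02, and 1.28 without TH 1). It stood at 123.6, 37.8 and 81.6 CPM in positive cells against 3.80, 10.9 and 44.9 CPM in negative cells, and these ranges overlap. A Cd74 read was found in 15.8% of positive and 4.72% of negative cells, and 1 cell held 42.8% of its positive reads. Of the class II chains that it escorts, H2-Ab1 had 12.997 ± 15.1 against 20.7 ± 20.7 CPM, with a read in 5.06% of positive and 3.15% of negative cells. H2-Aa had 0 reads in the positive cells and was read in 1 negative cell. H2-Eb1 had 1.06 against 0.065 CPM, from 1 positive and 2 negative cells. H2-D1, an MHC class I chain, had a ratio of 0.75 ± 0.24 and was higher in 3 of 3, at 1691 ± 367.1 against 994 ± 111.7 CPM. Of 18 inflammatory genes 0 met the rule, 3 were higher and 2 lower in 3 of 3 TH numbers, and Ccl3 had 1.46 ± 2.35 with 82.8% of its positive reads in 1 cell. Complement genes had 0 of 9 past the rule and 3 higher in 3 of 3, with C1qa, C1qb and C1qc at 0.13, 0.15 and 0.12. Of 14 genes of Trem2 and Tyrobp signalling and 13 of MHC class I, 0 met the rule.

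Among the remaining lists, immediate early genes, which tissue dissociation can switch on, had 1 of 12 that fell, Jun (-1.17 ± 1.04, and -0.58 without TH 1, short of the rule), with 0 higher and 5 lower in 3 of 3 TH numbers and a median of -0.30. Iron and oxidative stress genes had 0 of 23 that rose and 2 that fell, Sod2 (-1.30 ± 1.35) and Gclm (-1.04 ± 0.78), which are named after their values were seen; Ftl1, the ferritin light chain, was higher in 3 of 3 (0.47 ± 0.07). The 17 proliferation genes had a median of -1.47 with TH medians of -0.51, 0 and -3.0, and 0 met the rule. In the endocytosis list 0 of 25 met the rule, and its median of 0.01 and mean of -0.12 differ in sign. Respiratory chain genes had 0 of 30 past the rule, 9 higher and 0 lower in 3 of 3, and a median of 0.18. Beside these counts, 10.7% of all genes that reached 5 CPM were higher and 15.8% lower in 3 of 3 TH numbers.

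Outside the lists, the largest rises with the same sign in all 3 plasma groups were in genes of low level. Epm2aip1 (47.99 ± 2.65 against 13.7 ± 8.401 CPM, log2 ratio 1.94 ± 0.94), the rhomboid-family gene Rhbdd2 (1.78 ± 0.76), Vac14, a scaffold of endolysosomal lipid synthesis (1.75 ± 0.88), Rnaseh1 (1.65 ± 1.19), the lysosomal transporter Mfsd8 (1.63 ± 1.01) and Erlin1 of the endoplasmic reticulum (1.63 ± 0.81) rose. So did the lipid phosphatase gene Inppl1 (1.52 ± 0.53), Uap1l1 (1.46 ± 0.51) and the glycosyltransferase gene Galnt10 (1.45 ± 0.67). In these 9 genes the highest cell held between 9.07% (Uap1l1) and 38.4% (Inppl1) of the positive reads, and with the highest cells left out only Uap1l1 and Galnt10 of the 9 still met the rule, at 1.46 and 1.38. Of the other 7, Rhbdd2 was at 0.82 and 6 kept ratios of 1.01 (Erlin1) to 1.81 (Epm2aip1), short of the rule in level, share of cells or sign. Without TH 1 Vac14 (1.64) and Mfsd8 (1.93) no longer met it, without TH 2 Rnaseh1 (2.06), and without TH 3 Epm2aip1 (2.31), Rhbdd2 (1.34), Rnaseh1 (0.97) and Inppl1 (1.35); where the ratio stayed above 1, the level, the share of cells or the sign fell short. Averaged over the TH numbers of plasma none alone, each with 8 to 10 positive cells, the ratio was below 0 in all 9 but Epm2aip1 and Mfsd8.

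The largest falls were also in genes read in few cells. Slc33a1, an acetyl-CoA transporter, had 6.84, 0.566 and 6.80 CPM in positive cells against 40.1, 71.998 and 50.9 CPM in negative cells (-3.56 ± 1.73). The positive values all lay under the negative ones, yet a read was found in 6.33% of positive and 11.02% of negative cells. Zfp644, a zinc finger gene, had the smallest spread of the named falls (-2.50 ± 0.17; 18.3, 7.26 and 21.4 against 94.7, 47.3 and 138.3 CPM), with a read in 12.03% of positive and 17.1% of negative cells. Cstf1 and Thoc7 of mRNA processing and export (-3.03 ± 2.21 and -2.21 ± 1.17), the endosomal tethering gene Vps39 (-2.88 ± 1.26), the chromatin remodelling gene Baz1a (-2.55 ± 2.03) and the stress kinase gene Map3k5 (-2.28 ± 1.41) also fell. Ralgps2, the Gt(ROSA)26Sor locus and E4f1 each had -2.12, with SDs of 1.89, 1.29 and 2.54. Without TH 1 Cstf1 (-4.05) and Vps39 (-2.77) no longer met the rule, and without TH 3 E4f1 (-0.65). Positive cells were 15.5 to 16.3% of each TH number, 52 or 53 cells, so a gene read in few cells reaches 0 more easily in the positive sums, and its part in the falls was not tested.

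The level of Apoe within the positive class was followed in the 91 cells of 100 to 1000 CPM and the 63 cells of 1000 CPM or more, each against the same negative cells, so that these values are not independent of each other. Axl, Lyz2, Lpl, Cd74, Ank and Cd63 were picked for being higher in positive cells. Their excess over the cells with 0 Apoe reads therefore only describes them. At 50000 reads a cell, an Axl read was found in 1.69% of cells with 0 Apoe reads, 9.89% of the middle range (interval 4.62 to 17.9%) and 28.6% of the upper range (17.9 to 41.4%). For Lyz2 these shares were 37.8, 65.9 and 80.95%, for Lpl 6.30, 15.4 and 26.98%, for Cd74 4.24, 8.79 and 26.98%, and for Ank 6.78, 10.99 and 17.5%. Cd63 was found in 58.6, 78.02 and 76.2%, and the intervals of the middle and upper ranges overlap. The log2 ratios of summed reads in the middle and upper ranges were 2.49 ± 1.95 and 3.60 ± 0.25 for Axl, and 0.73 and 1.56 for Cd63. They were 0.18 and 3.19 for Ank, and -0.19 and -0.46 for P2ry12. The median of the 30 disease-associated genes was 0.22 in the middle range and 0.58 in the upper, and that of the homeostatic genes 0.00 and -0.25. For the lipoprotein and sterol genes the median was -0.02 and -0.03, and for the interferon genes 0 and -0.11. For the lysosomal genes it was 0.13 and 0.31, and for the ribosomal genes 0.11 and 0.39. Because plasma high holds 40 of the 63 cells of the upper range and 37 of the 91 of the middle range, plasma group and Apoe level are partly joined here.

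**Figure D5:**
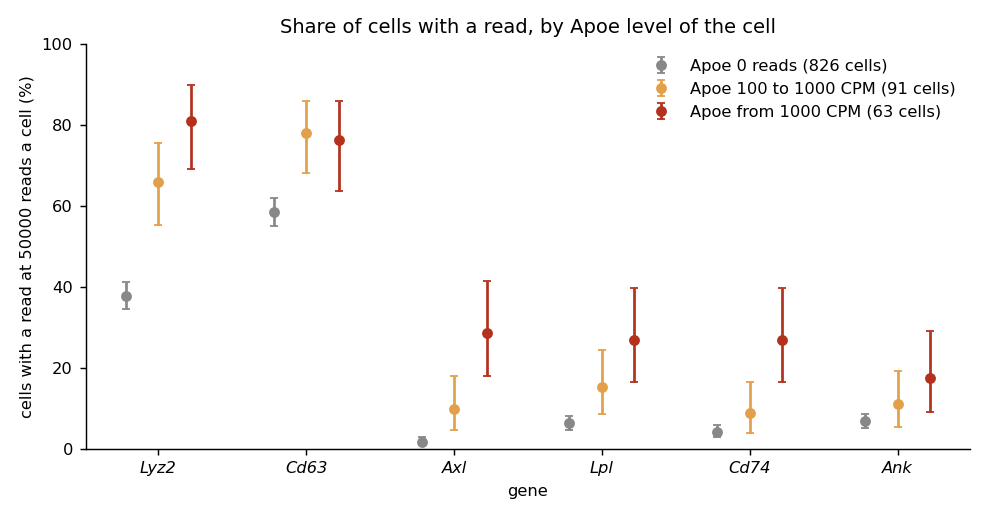
Share of cells with a read of 6 genes at 50000 reads a cell, for cells with 0 Apoe reads (826), 100 to 1000 CPM (91) and 1000 CPM or more (63); bars are 95% exact binomial intervals. The 6 genes were picked for being higher in positive cells. Axl reached 28.6% in the upper range against 1.69% with 0 Apoe reads, while Cd63 was found in 78.02 and 76.2% of the middle and upper ranges.

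The ratios of the disease-associated genes were nearest to 0 in plasma none, where 28 cells were positive. Over plasma none, low and high their median log2 ratio was 0, 0.55 and 0.79. At 50000 reads a cell an Axl read was found in 2 of 28 positive cells of plasma none (7.14%), 6 of 52 of plasma low (11.5%) and 19 of 78 of plasma high (24.4%), against 0.943, 2.02 and 2.37% of the negative cells. A Lyz2 read was found in 14 of the 28 positive cells of plasma none, 71.2% of those of plasma low and 82.1% of those of plasma high, against 28.6, 40.1 and 48.3% of the negative cells. Lyz2 was thus more frequent in positive cells within each plasma group, and more frequent in plasma high than in plasma none within each class. Whether the plasma groups differ in the size of these differences was not tested.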

How the data were processed

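The authors deposited 1 table per TH number, with whole-number counts of reads per gene and cell. Per the file headers each value is a mean over a feature's probes, and 2 features have 2 probes. In 1 column of TH 3 the deposited values of these 2 features were not whole, and that column, treated like expected counts, was rounded down. Per the submitters' processing notes, bcl2fastq, Trim Galore, STAR 2.5.3a and Seurat were used with mm10, in roles not given. Per the file headers, the TH 2 and TH 3 columns came from alignments reduced to top hits. The counting tool and its strand use are not given in the sources used here. The 1045 columns of standard deviations were not used, and 66 of 1111 labelled cells have no column and were not analysed here.

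Counts of 158 positive and 826 negative cells were summed per class, plasma group and TH number and scaled with TMM (edgeR 4.0.16), or with DESeq2 1.42.0 size factors as an alternative. Shares at equal depth used cells thinned to 50000 reads. The size rule was also run on sums drawn with known changes, with every gene set to be read in all cells. That run did not cover the share of cells or genes carried by a single cell, and its outcome is not given here. No doublet caller was run, since cells were sorted singly. The members and gene lists were chosen with earlier results of these data known. Named genes were, among those past the size rule with the same sign in 3 plasma groups and no predicted or clone name, the 12 largest rises and 10 largest falls. To these were added the largest rise and fall of each list, and the genes of the lipoprotein, disease-associated and homeostatic lists, at 20 CPM or more. Other genes given with values were chosen after their values were seen. Results for some list genes are not reported here.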

Additional observations from a re-analysis of the deposited data

Results flagged for a closer look

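Of 120 named genes and 17 lists, 8 genes and 1 list were higher in Apoe-positive cells in 3 of 3 TH numbers of 1 plasma group and lower in 3 of 3 of another. Values are mean log2 ratios over the TH numbers without TMM scaling, each TH number of plasma none has 8 to 10 positive cells, and the difference between the plasma groups was not tested. In every case plasma none was the lower group. Abcg1, the cholesterol transporter, over plasma none, low and high had -0.29, 0.35 and 0.78. Scarb2, the lysosomal membrane protein LIMP-2, had -1.12, 0.26 and 0.58, and the chemokine gene Ccl6 had -0.82, 0.22 and 0.51. Npc2 had -0.20 in plasma none and 0.28 in plasma high, the outer mitochondrial membrane gene Tspo -2.38 and 0.40, and the integrin gene Itgb2 -0.19 and 0.71. Cd68 had -0.68 in plasma none and 0.15 in plasma low, and Rgs10 -0.47 and 0.067. The median of the lipoprotein and sterol list over plasma none, low and high was -1.05, 0.25 and 0.12.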

How the results depend on the processing

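The calls, 120 named genes, 17 list medians and the differences in genes per cell and mitochondrial share were recomputed under 23 alternatives (22 for genes that overlap another), 2 of them chosen after seeing the data (leaving out positive cells of 10000 CPM or more, and leaving out genes that overlap another). Rises, 1.51% of the genes tested in the report, were 0.994% with the mean of cell CPM, 0.868% of 35582 genes with no filter on low genes, 2.68% in cells of at least 200000 reads, 0.890% with cells thinned to 50000 reads, 0.771% after removal of each gene's highest cell, 2.75% in plasma low alone, 3.27% in plasma high alone and 1.56% of 2759 without overlapping genes. Falls, 3.14% in the report, were 4.13% with no filter, 5.10% at 200000 reads, 6.65% after removal of the highest cells, 17.3, 9.35 and 8.38% in plasma none, low and high alone, and 3.26% without overlapping genes. Leaving out 1 TH number gave 3.30 to 4.06% rises and 6.12 to 6.26% falls. In plasma none alone the mean log2 ratio turned to -1.15 for Rhbdd2, -0.83 for Vac14, -0.31 for Rnaseh1, -0.63 for Erlin1, -1.56 for Inppl1, -3.22 for Uap1l1, -0.83 for Galnt10, -0.39 for Lpl, -0.41 for Cd63 and -1.74 for Ank, and in plasma low alone to -0.81 for Vac14 and -0.82 for Ank; fewer cells enter there, and the cause was not tested. The rule was met by Lyz2 and Lpl under 22 of the 23 alternatives, by Axl and Cd74 under 21 and by Cd63 under 19; Zfp644, Thoc7 and Gt(ROSA)26Sor met it under all 22 that apply to them. The disease-associated median kept its sign under 22 of 23, the exception being plasma none alone (-0.29). There the medians also turned to -1.58 for inflammatory, -0.84 for lipoprotein, -0.53 for iron and oxidative stress, -0.42 for MHC class I and -0.39 for endocytosis genes. They turned to -0.34 for respiratory chain, -0.32 for lysosomal, -0.15 for ribosomal and -0.14 for complement genes as well. The interferon median turned to -0.53 in plasma low alone. The homeostatic median kept its sign under 22, turning to 0.09 without the highest cells. Differences in genes per cell and mitochondrial share moved by less than their SD under every alternative. No paired analysis was possible because no test was made; both classes were set against each other within each TH number, and replicate numbers only name cells. Positive cells number 8 to 27 per plasma group and TH number, which limits genes read in few cells.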
